A study of Mus musculus with 4 samples.

Results

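The growth hormone and IGF axis was examined in liver RNA sequencing data from male C57BL/6 mice, with 10 genes chosen by symbol out of 24346 listed genes. The genes were the growth hormone receptor gene Ghr, the transcription factor gene Stat5b, the feedback inhibitor genes Socs2 and Cish, the hormone gene Igf1, its carrier gene Igfals and the binding protein genes Igfbp1, Igfbp2, Igfbp3 and Igfbp4. All mice were wild type young adults that received a steatohepatitis-inducing diet rich in fat, cholesterol and sucrose with added bile salt (NASH diet) over 3 weeks. The control group (n = 2 libraries) received this diet alone, and the 7KC group (n = 2 libraries) received it with added 7-ketocholesterol (7KC), an oxidized form of cholesterol. No group on a normal diet was analysed here, so all values describe livers under the NASH diet. The 10 genes were picked with earlier results of the same comparison known, so their differences between the groups are described and not tested.

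Growth hormone from the pituitary binds its receptor on hepatocytes, which activates the kinase JAK2 and the transcription factor STAT5B. STAT5B switches on Igf1 and Igfals, and also Socs2 and Cish, whose products dampen the signal. In male rodents the hormone is secreted in pulses, and STAT5 activity in the liver rises and falls with them. IGF-1 leaves the liver and circulates mostly in a ternary complex with IGFBP-3 and the acid labile subunit, the product of Igfals, while IGFBP-1, IGFBP-2 and IGFBP-4 form smaller complexes.

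STAT5 binds DNA at the palindrome TTCNNNGAA, which reads the same on both strands. RefSeq promoter windows (GRCm38.p6, the assembly also called mm10) of 250 bases before to 50 after a start were matched by symbol for 9 of the 10 genes, with 14 windows in all, and Socs2 was not matched. The motif was present in windows of 2 genes, Cish and Igfals. They are shown because Cish had the widest spread between libraries of the 10 genes and Igfals did not share it, with the motif in capitals. The Cish stretch lies at chr9:107296654-107296683 on the plus strand, and its motifs begin 1 and 12 bases into the transcript. The Igfals stretches lie at chr17:24877598-24877626 and chr17:24878163-24878191, both on the plus strand, and belong to different starts.
Cish: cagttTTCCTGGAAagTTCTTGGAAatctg
Igfals, first start: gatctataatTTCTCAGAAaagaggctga
Igfals, second start: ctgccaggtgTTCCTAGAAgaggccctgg
Of all 32851 windows, 8.3% held at least 1 such motif and 0.457% held at least 2, as the Cish window did. A match only describes these letters, and binding was not measured.

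Expression was given as FPKM, by definition fragments per kilobase of exon scaled to the mapped fragments of the library, with 1 value per gene and library. The estimated depth was 13500000 to 16800000 reads per library, and all pairs of libraries had correlations of 0.958 to 0.983 across the 12299 genes whose mean reached 0.5 FPKM, on the log2(FPKM + 0.5) scale. Genes are not independent replicates, so these correlations only describe the libraries. The defining hepatocyte genes were abundant in every library, with Alb (albumin) at 18988 to 41547 FPKM and Apoa1 (an apolipoprotein) at 7790 to 15783 FPKM. All 10 genes passed the filter on low values. The shallowest of their values corresponded to about 76.5 reads, for Socs2 in 7KC replicate 2, for which read sampling alone implies an error of 11.4% (coefficient of variation). This covers counting error only.

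Igfbp4 and Igfbp2 were the most abundant transcripts of the axis in both groups. In the control group the order by mean FPKM was Igfbp4, Igfbp2, Igfbp1, Ghr, Igf1, Igfals, Igfbp3, Cish, Stat5b and Socs2. FPKM is per length, so these levels can be set side by side. Igfbp1 and Ghr overlapped in range, and so did each neighbouring pair from Igfbp3 down to Socs2. In the 7KC group the order was Igfbp4, Igfbp2, Ghr, Igfbp1, Igf1, Igfals, Cish, Socs2, Stat5b and Igfbp3. Here Ghr overlapped Igfbp1, Igfbp1 overlapped Igf1, and each neighbouring pair from Igfals down to Stat5b overlapped, while Igfbp3 lay below the range of Stat5b.

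**Figure D1:**
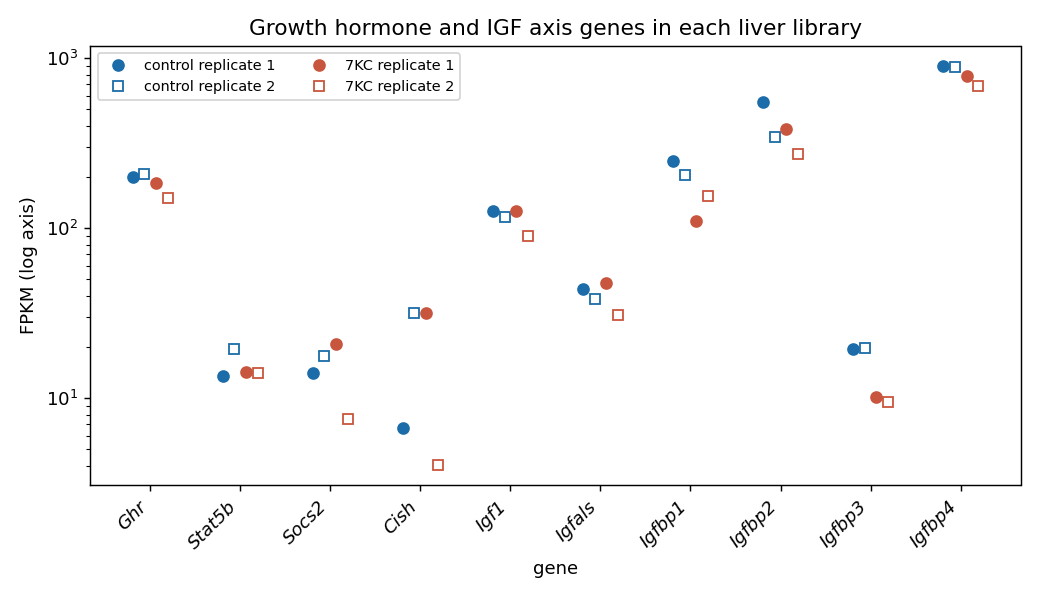
FPKM (log axis) of the 10 genes in each library, with 1 point per library, circles for replicate 1 and squares for replicate 2. The Igfbp3 points of the 7KC group sit at 9.45 and 10.1 FPKM, below both control points at 19.5 and 19.8, while the Cish points of both groups span 4.03 to 31.7.

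The receptor gene Ghr was lower in the 7KC group by 17.5%. Ghr (chromosome 15, 3317760 to 3583492, minus strand) reached 199 and 208 FPKM in the control group against 185 and 151 FPKM in the 7KC group. The groups did not overlap on the deposited scale but did after rescaling to the same sum, and the log2 change was -0.28 (SE 0.15, limma fit). Stat5b (chromosome 11, 100780731 to 100850724, minus strand), which carries the signal to the nucleus, was at 13.4 and 19.3 FPKM in the control group against 14.2 and 14.1 FPKM in the 7KC group. Here the groups overlapped and the 7KC libraries lay within the control range, with a log2 change of -0.18 (SE 0.19).

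The feedback genes differed far more between libraries of the same group than between the groups. Cish (chromosome 9, 107296026 to 107302784, plus strand), a STAT5-induced inhibitor of cytokine signaling, was at 6.66 and 31.7 FPKM in control replicates 1 and 2 and at 31.6 and 4.03 FPKM in 7KC replicates 1 and 2. The spread was 4.76-fold within the control group and 7.85-fold within the 7KC group, whereas the group means, 19.2 ± 17.7 and 17.8 ± 19.5 FPKM (SD, n = 2 each), differed by 7.26%. These values stood for at least 138 reads in every library. Of the 7156 genes that averaged 5 FPKM or more and were above 0 in every library, 2 had at least the Cish spread in both groups, Cish itself and Onecut1. The median spread of those genes was 1.11-fold in each group. In the annotation 11.5% of the exon bases of Cish are shared with antisense gene models, and reads of such models cannot be separated because the strand setting of the counting was not given.

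Socs2 (chromosome 10, 95385362 to 95417180, minus strand), which removes the activated growth hormone receptor, had its higher values in the same libraries as Cish, with a smaller range. It was at 14.1 and 17.6 FPKM in the control group against 20.9 and 7.58 FPKM in the 7KC group. The lowest and the highest value both came from the 7KC group, 2.76-fold apart, and a spread that wide within the 7KC group was found in 0.307% of the 7156 genes. Its log2 change was -0.31 (SE 0.46) and that of Cish was -0.33 (SE 1.10). The sign of both depended on single libraries: without 7KC replicate 2 the changes were 0.40 for Socs2 and 1.08 for Cish, and without 7KC replicate 1 they were -1.01 and -1.75. Without control replicate 1 the change of Cish was -1.42, and without control replicate 2 it was 0.75.

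A pair of other genes, named after their values were seen, also varied between these libraries. Onecut1, a liver transcription factor gene that growth hormone induces, was at 3.96 and 23.2 FPKM in the control group against 32.9 and 2.86 FPKM in the 7KC group. Bcl6, a repressor gene that growth hormone lowers, had the opposite order, with 30.1 and 10.5 FPKM in the control group against 9.27 and 27.7 FPKM in the 7KC group. The ratio of Cish to Bcl6 within a library was 0.221 and 3.03 in the control group and 3.41 and 0.145 in the 7KC group. Control replicate 2 and 7KC replicate 1 were thus high in Cish and Onecut1 and low in Bcl6, and control replicate 1 and 7KC replicate 2 the reverse, so this pattern crossed the diet groups. Igf1 and Igfals did not follow it, and among 19 male-biased growth hormone dependent genes control replicate 2 was the highest library in 14 but 7KC replicate 1 in 1. No hormone level was analysed here, and the time of tissue collection was not given in the sources used here.

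The genes most like Cish were sought among the 7173 genes that averaged 5 FPKM or more, by the Euclidean distance of their centred log2(FPKM + 0.5) values over the 4 libraries. Cish was added to this search after its values were seen. The closest were Phlda1 (distance 0.47), the pseudogene Serpina4-ps1 (0.49), the forkhead gene Foxq1 (0.50), Onecut1 (0.54) and the homeobox gene Hhex (0.55). Foxq1 was at 5.59 and 42.9 FPKM in the control group against 34.5 and 5.13 FPKM in the 7KC group, and Hhex was at 27.4 and 101 FPKM in the control group against 107 and 23.0 FPKM in the 7KC group. A likeness over 4 libraries is a description only.

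**Figure D2:**
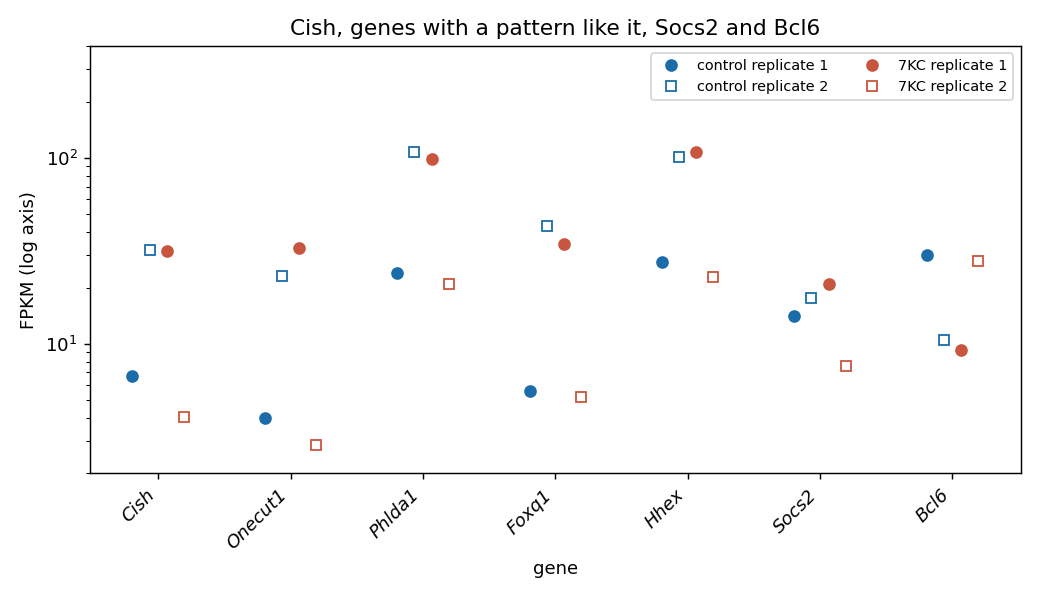
FPKM (log axis) of Cish, 4 genes close to it in pattern, Socs2 and Bcl6, with 1 point per library, circles for replicate 1 and squares for replicate 2. In Cish, Onecut1, Phlda1, Foxq1 and Hhex the points of control replicate 2 and 7KC replicate 1 lie above the other pair, and in Bcl6 they lie below it, at 10.5 and 9.27 against 30.1 and 27.7 FPKM.

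Igf1 and Igfals, also STAT5B targets, had smaller spreads within the groups. Igf1 (chromosome 10, 87858265 to 87937042, plus strand) reached 127 and 116 FPKM in the control group against 126 and 89.5 FPKM in the 7KC group. Igfals (chromosome 17, 24865997 to 24882010, plus strand) reached 43.7 and 38.4 FPKM in the control group against 47.6 and 30.9 FPKM in the 7KC group. In both genes 7KC replicate 1 lay above the lower control value and 7KC replicate 2 was the lowest library, so the groups overlapped. The log2 changes were -0.19 (SE 0.19) for Igf1 and -0.09 (SE 0.22) for Igfals, and they turned to 0.05 and 0.22 without 7KC replicate 2 and to 0.02 and 0.11 after rescaling to the same sum.

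The ratio of Igf1 to Igfals within a library, which does not depend on the scaling, was 2.90 and 3.01 in the control group and 2.64 and 2.90 in the 7KC group. The 3 genes closest to Igf1 in pattern were Lsm7, Rnasek and Dlg3, at distances of 0.06 each, and each had its lowest value in 7KC replicate 2.

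Among the binding protein genes, Igfbp3, Igfbp1 and Igfbp4 were lower in both 7KC libraries than in either control library. Igfbp3 (chromosome 11, 7206086 to 7213923, minus strand), the main carrier of circulating IGF-1, had the narrowest spread within the groups of the 4 and the largest difference between them. It was at 19.5 and 19.8 FPKM in the control group against 10.1 and 9.45 FPKM in the 7KC group, which is 50.3% lower on average. Within the groups its libraries differed by 1.01-fold and 1.07-fold, and the log2 change was -0.97 (SE 0.11). Its values stood for about 495 and 406 reads in the control group and 205 and 193 in the 7KC group. At the lowest value read sampling alone implies an error of 7.2% (coefficient of variation), which is no smaller than these spreads. Leaving out any 1 library kept the change between -1.02 and -0.93, and the scalings kept it between -0.98 and -0.79.

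Igfbp1 (chromosome 11, 7197782 to 7202546, plus strand), a gene that insulin suppresses and fasting raises, was at 247 and 205 FPKM in the control group against 110 and 154 FPKM in the 7KC group. The groups did not overlap and the 7KC mean was 41.6% lower, with a log2 change of -0.79 (SE 0.20) and a range of -1.03 to -0.55 when 1 library was left out. Igfbp1 and Igfbp3 are neighbours on chromosome 11, with 3539 bases between their ends and opposite strands.

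The other two binding protein genes were the most abundant. Igfbp4 (chromosome 11, 99041244 to 99054392, plus strand) reached 900 and 887 FPKM in the control group against 787 and 688 FPKM in the 7KC group, without overlap and with a log2 change of -0.28 (SE 0.15). Igfbp2 (chromosome 1, 72824503 to 72852474, plus strand) reached 553 and 345 FPKM in the control group against 382 and 273 FPKM in the 7KC group, with overlap and a log2 change of -0.44 (SE 0.28). Without control replicate 1 the change of Igfbp2 was -0.10 and without 7KC replicate 2 it was -0.19.

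Summed over the 4 binding protein genes, the level was 1719 and 1457 FPKM in the control group and 1289 and 1125 FPKM in the 7KC group. The share of Igfbp3 in this sum was 1.14% and 1.36% in the control group and 0.782% and 0.841% in the 7KC group, so it was lower also as a ratio within each library. Igfbp4 took 52.4% and 60.9% in the control group and 61.1% and 61.2% in the 7KC group. Igfbp1 took 14.3% and 14.1% in the control group and 8.53% and 13.7% in the 7KC group, so 7KC replicate 1 stood apart and 7KC replicate 2 lay close to the controls.

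Of the genes for the ternary complex, Igfbp3 differed from the others. The ratio of Igf1 to Igfbp3 was 6.49 and 5.84 in the control group and 12.5 and 9.47 in the 7KC group, and that of Igfals to Igfbp3 was 2.24 and 1.94 against 4.73 and 3.27. Both ratios were higher in each 7KC library than in each control library. The genes closest to Igfbp3 in pattern were Gas1 (distance 0.13), Fam134b (0.15) and Acly (0.22), the last encoding ATP citrate lyase of lipid synthesis. Gas1 was at 6.57 and 6.87 FPKM in the control group against 3.67 and 3.38 FPKM in the 7KC group.

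**Figure D3:**
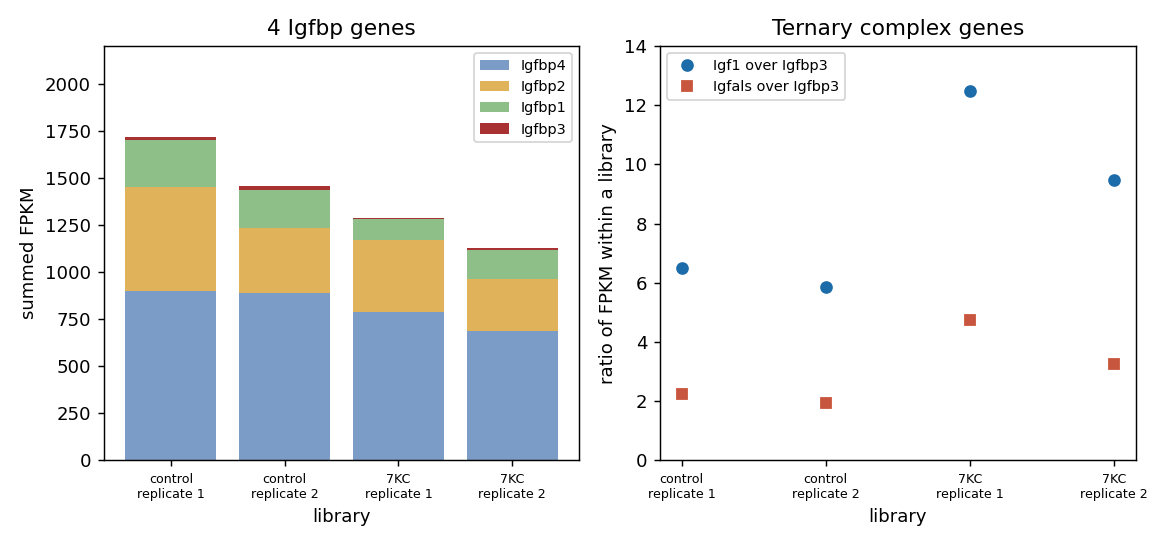
Left, FPKM of Igfbp4, Igfbp2, Igfbp1 and Igfbp3 stacked for each library, and right, the ratios of Igf1 and Igfals to Igfbp3 within each library. The sum falls between 1125 and 1289 FPKM in the 7KC group against 1457 and 1719 FPKM in the control group, and both ratios are higher in the 7KC group.

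On the deposited scale all 10 genes had a log2 change below 0, with a median of -0.29, where the median of all 12299 tested genes was -0.03. Of those 12299 genes, 6625 had a change below 0. The groups did not overlap in 4 of the 10, Ghr, Igfbp1, Igfbp3 and Igfbp4, all lower, and over all tested genes this occurred in 27.4% for lower and 25.1% for higher. In the limma fit over all genes, 0.0244% of tested genes were lower and 0.48% higher at an adjusted p under 0.05. No such call is given for the 10 genes. These shares are given for scale, because the genes were picked with this comparison known.

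The scaling of the libraries moved these changes, except for median ratio scaling, which left them nearly as deposited. Rescaling each library to the same sum shifted the median of all genes to 0.17, and Igf1, Igfals and Stat5b then had changes above 0 (0.02, 0.11 and 0.02), although only Igf1, Igfals and Igfbp4 ever stood at or above the median of all genes under any scaling. Under this scaling 3 of the 10 genes did not overlap, Igfbp1, Igfbp3 and Igfbp4, all lower, against 7.86% of all tested genes that were lower and 46.5% that were higher. Relative to the median of all genes, Igfbp3 was between -0.95 and -0.90 over the scalings, Igfbp1 between -0.76 and -0.54, and Igfbp4 between -0.25 and 0.01. Of the 10 genes, 8 had their lowest value in 7KC replicate 2. That library had the lowest sum of hepatocyte markers and also the lowest summed FPKM of all genes (557138 against 619828 to 685028). The share of all genes that were lowest in that library is not given here, so this count cannot be judged against it.

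**Figure D4:**
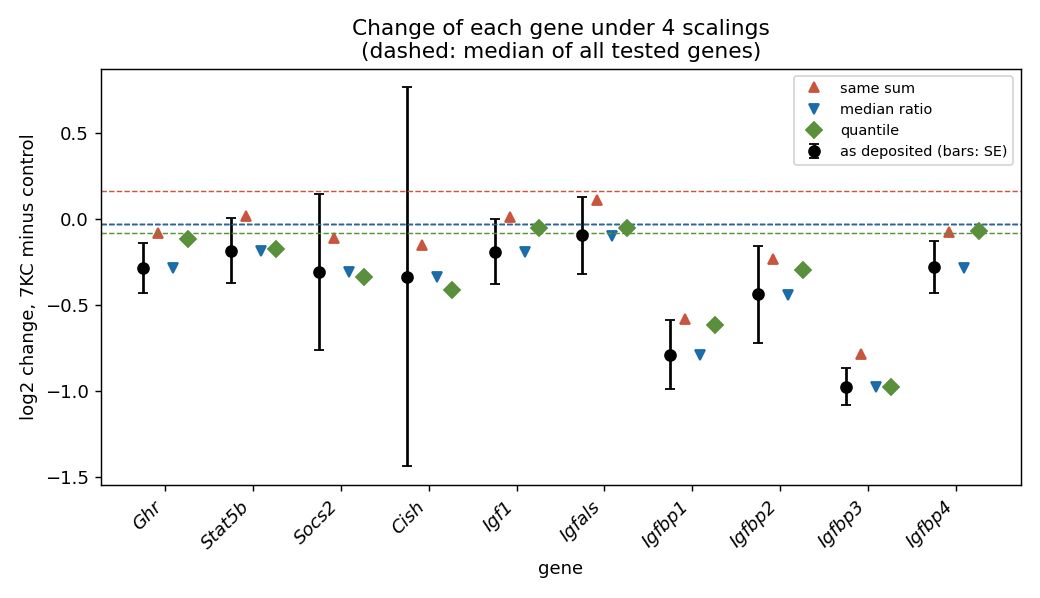
Log2 change (7KC minus control) of the 10 genes on the deposited scale with its SE (black) and under 3 other scalings, with dashed lines at the median of all tested genes under each. Igfbp3 and Igfbp1 lie below the lines under every scaling, and the bar of Cish spans from below -1 to above 0.

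The other genes of growth hormone receptor signaling came from a list of 19, all tested. With limma 1 rose and 0 fell at an adjusted p under 0.05, and at an unadjusted p under 0.05 these were 7 and 1, where of all tested genes 12% were higher and 5.81% lower. The libraries did not overlap in 10 genes that were higher and 3 that were lower, which is 52.6% and 15.8% of the list, against 25.1% and 27.4% of all tested genes. The median log2 change was 0.24 on the deposited scale and 0.44 after rescaling to the same sum, against -0.03 and 0.17 for all tested genes.

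Among inhibitors of the receptor, Socs1 was at 2.54 and 2.07 FPKM in the control group against 18.8 and 7.17 FPKM in the 7KC group, with a change of 2.12 on the log2 scale (SE 0.43, limma adjusted p 0.0985). Sirpa, a membrane receptor of phagocytes that binds phosphatases, had 1.14 (SE 0.22, adjusted p 0.0913). Socs3 and Jak2, the receptor's kinase gene, had log2 changes of 0.28 and 0.57 (adjusted p 0.317 and 0.132). Below control in each library were the prolactin receptor gene Prlr, with -0.74 (SE 0.18, adjusted p 0.128), Socs7 with -0.34 and Socs6 with -0.13. Stat5a, the close relative of Stat5b, was at 3.26 and 2.99 FPKM in the control group against 3.27 and 4.37 FPKM in the 7KC group, a log2 change of 0.24 (adjusted p 0.499). After rescaling to the same sum, Socs1, Ptpn1 and Ptpn6, the last 2 encoding tyrosine phosphatases, were higher at an adjusted p under 0.05 with limma. Macrophage and lymphocyte markers were also higher in the 7KC group (median log2 changes of 0.92 and 1.09). The part of these cell types in the changes of the signaling genes was not tested.

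Of 20 other genes of the IGF system, 11 were tested and none rose or fell with limma. At an unadjusted p under 0.05 there were 0 higher and 1 lower, against 12% and 5.81% of all tested genes. The libraries did not overlap in 3 higher and 3 lower genes, 27.3% of those tested in each direction. Of all tested genes these shares were 25.1% and 27.4%. The median log2 change was -0.15, and it moved to 0.06 after rescaling to the same sum, to 0.01 without control replicate 2 and to 0.15 without 7KC replicate 1. The IGF-1 receptor gene Igf1r was under the filter, with 0.438 and 0.586 FPKM in the control group against 0.265 and 0.501 FPKM in the 7KC group, and Igf2 was at no more than 0.233 FPKM. The insulin receptor substrate genes Irs2 and Irs1 lay lower in each 7KC library, with log2 changes of -0.62 (SE 0.15, adjusted p 0.127) and -0.48 (SE 0.20, adjusted p 0.303). Grb14, an inhibitor of the insulin receptor, had -0.19, and the serine protease gene Htra1 had 0.54 (SE 0.25, adjusted p 0.342) and Grb10 0.10. Igfbp7, the most abundant further binding protein gene, was at 153 to 170 FPKM in the control group and at 149 to 179 FPKM in the 7KC group.

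Genes that depend on the pulsatile male pattern of growth hormone were read out next, since all mice were male. Of 20 male-biased liver genes 19 were tested, and with limma 0 rose and 0 fell, while at an unadjusted p under 0.05 there were 1 and 5, against 12% and 5.81% of all tested genes. The median log2 change was -0.57 on the deposited scale and -0.37 after rescaling to the same sum, against -0.03 and 0.17 for all tested genes. The groups did not overlap in 7 lower genes and 1 higher gene, which is 36.8% and 5.26% of those tested, against 27.4% and 25.1% of all tested genes. After rescaling to the same sum these were 5 and 1, against 7.86% and 46.5%. Elovl3, a fatty acid elongase gene, was at 29.7 and 76.9 FPKM in the control group against 22.7 and 17.3 FPKM in the 7KC group, a change of -1.25 on the log2 scale (SE 0.45, limma adjusted p 0.244). The major urinary protein genes Mup3 and Mup21 had -1.12 (SE 0.36, adjusted p 0.211) and -1.03 (SE 0.25, adjusted p 0.134). The higher gene was Ugt2b38 with 1.42 (adjusted p 0.24). Mup genes are near-identical copies and single values are uncertain.

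Control replicate 2 held the highest value in 14 of these 19 genes and 7KC replicate 2 the lowest in 11. The shares of all genes with these extremes are not given here. Hsd3b5, a male-specific steroid enzyme gene, was at 39.8 and 104 FPKM in the control group against 51.7 and 20.0 FPKM in the 7KC group. Mup7 was at 106 and 1446 FPKM in the control group against 156 and 131 FPKM in the 7KC group. Both genes overlapped between the groups. Without control replicate 1, 4 of the genes (Elovl3, Mup1, Mup7 and Susd4) were lower at an adjusted p under 0.05 with limma. That fit has 1 control library, control replicate 2, and takes its spread from the 7KC pair, so the lone library is assumed to vary like that group. Without control replicate 2 none passed, and the median moved to -0.30.

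**Figure D5:**
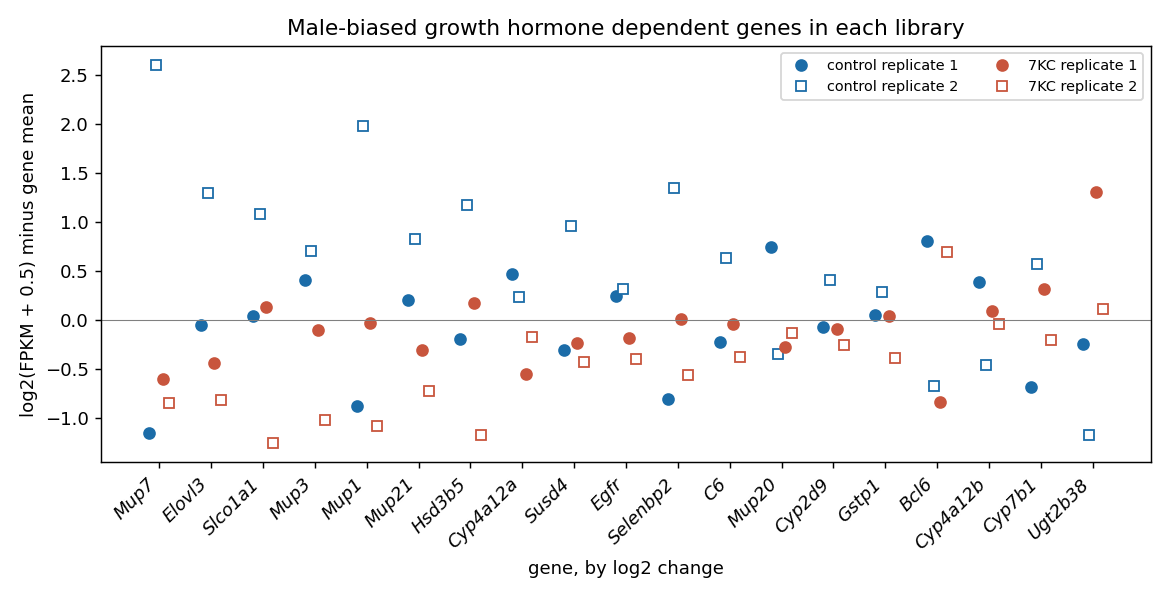
Values of 19 male-biased growth hormone dependent genes as log2(FPKM + 0.5) minus the mean of the gene, ordered by log2 change, with circles for replicate 1 and squares for replicate 2. Control replicate 2 (open blue squares) is the highest point in 14 genes and 7KC replicate 2 (open red squares) the lowest in 11.

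Female-biased genes, which the continuous female pattern of the hormone raises, were mostly near 0. Of 20 such genes 8 passed the filter, and with limma 0 rose and 0 fell. At an unadjusted p under 0.05 there were 0 and 2, against 12% and 5.81% of all tested genes. Without overlap 0 were higher and 2 lower, 0% and 25% of those tested, against 25.1% and 27.4% of all tested genes. Cyp2b13, Cyp3a41a, Cyp3a41b, Sult2a1 and Hao2 were listed at 0 in all 4 libraries. Of those tested, Fmo2 had a change of -0.93 on the log2 scale (SE 0.18, limma adjusted p 0.0928) and Cyp17a1 had -0.64 (SE 0.20, adjusted p 0.205), and both lay lower in each 7KC library. The median of the list was -0.06, and it was 0.15 without control replicate 1, -0.53 without control replicate 2 and 0.13 after rescaling to the same sum.

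Insulin and fasting genes, which share the control of Igfbp1, were listed as 12 genes, all tested. With limma 0 rose and 0 fell, while at an unadjusted p under 0.05 there were 0 and 4, against 12% and 5.81% of all tested genes. The median log2 change was -0.28 (-0.08 after rescaling to the same sum). In 6 of the genes, 50% of the list, both 7KC libraries lay lower, against 27.4% of all tested genes. After rescaling to the same sum 4 were lower and 1 higher without overlap, against 7.86% and 46.5%. G6pc, the glucose-6-phosphatase gene of glucose output, was at 348 and 310 FPKM in the control group against 128 and 197 FPKM in the 7KC group (log2 change -1.05, SE 0.23, limma adjusted p 0.109), and 7KC replicate 1 was the lowest library as it was for Igfbp1. Srebf1, a regulator gene of lipid synthesis that insulin raises, had -0.69 (SE 0.17, adjusted p 0.137) and Klb, the coreceptor gene for FGF21, had -0.68 (SE 0.20, adjusted p 0.193). The groups overlapped in Pck1, another gene of glucose output, at 1166 to 2384 FPKM in the control group and 1328 to 1635 FPKM in the 7KC group.

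Markers of liver cell types were read out beside these results. In bulk tissue fewer cells of a type and less RNA per cell cannot be told apart. All 14 hepatocyte markers had log2 changes below 0 on the deposited scale, with a median of -0.49, and 11 had after rescaling to the same sum and 10 after quantile normalization (medians -0.28 and -0.11). Of all 12299 tested genes, 6625 were below 0 on the deposited scale. On that scale 12 of the markers were lower without overlap, where 27.4% of all tested genes were. After rescaling to the same sum 9 markers were lower and 2 higher without overlap, against 7.86% and 46.5% of all tested genes. After quantile normalization these were 4 and 1, and the shares of all genes are not given here. The summed level of the markers was 95468 to 107926 FPKM in the control group and 64570 to 82335 FPKM in the 7KC group. The median change of the 10 axis genes was closer to 0 than that of the hepatocyte markers on the deposited scale (-0.29) and at the same sum (-0.09), but not after quantile normalization (-0.23).

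IGFBP-3 mRNA in rodent liver is found mainly in non-parenchymal cells. Endothelial markers had a median log2 change of -0.04 (0.16 at the same sum), with 1 of 10 higher and 0 lower without overlap, and a summed level of 184 to 224 FPKM in the control group and 178 to 260 FPKM in the 7KC group. Stellate cell markers had a median of -0.14 (0.04 at the same sum), with 1 of 9 higher and 4 lower without overlap, and sums of 281 to 289 and 219 to 262 FPKM. Macrophage markers had a median of 0.92, with 9 of 12 higher and 1 lower, and sums of 699 to 925 and 1510 to 2356 FPKM. Lymphocyte markers had a median of 1.09, with 8 of 10 higher, and sums of 16.0 to 25.7 and 47.2 to 55.9 FPKM. Of all tested genes, 25.1% were higher and 27.4% lower without overlap. Cholangiocyte and neutrophil markers had medians of 0.19 (4 genes, -0.01 after quantile normalization) and 0.58 (4 genes), with sums of 57.8 to 89.4 and 18.3 to 33.9 FPKM in the control group and 168 to 368 and 39.4 to 42.3 FPKM in the 7KC group. The cholangiocyte sum was mostly Spp1 (osteopontin), with 85.6 and 54.1 FPKM in the control group against 165 and 363 FPKM in the 7KC group, and the other 5 markers summed to 3.75 and 3.69 FPKM in the control group and 3.05 and 4.70 FPKM in the 7KC group. No matched marker was listed at 0 in any library. The part of these cell types in the changes of the axis genes and of the other lists was not tested.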

How the data were processed

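The libraries were made from liver RNA with a stranded mRNA kit. Per the labels and the study's methods, 75-base single-end reads were mapped to mm10 with TopHat and Bowtie2. The deposited FPKM values were calculated by the authors with Cufflinks. For these steps the submitters' processing notes name TopHat2 2.1.1, Bowtie2 2.2.8 and Cuffdiff 2.2.1, whereas the methods give other versions of the mapping tools. The gene annotation, strand and multi-mapping settings were not given in the sources used here. FPKM is by definition relative to the mapped reads, and the summed FPKM of the libraries ran from 557138 to 685028. Median ratio scaling left the values nearly as deposited, with a median log2 change of all genes of -0.03 before and after. The deposited values thus already lay close to that scale, and whether it was applied before deposit was not established here.

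Values were compared as log2(FPKM + 0.5), which understates changes of low genes. Genes averaging 0.5 FPKM or more (12299) were fitted with limma 3.58.1 in R 4.3.3 (group as the only term, prior variance following mean expression, Benjamini-Hochberg adjustment over all genes, threshold 0.05). Residuals had 2 degrees of freedom. Nothing states that the samples are separate animals, so p-values measure the spread between these samples. An exact permutation test of 2 against 2 cannot go below p = 0.333.

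The members and gene lists were chosen with earlier results of these data known. All 10 members were named. Of each other list, genes past the threshold were named, except 1 that is not reported here, and up to 3 rises and 3 falls without overlap and of at least 1 FPKM. Jak2, Socs3, Stat5a, Ptpn1, Ptpn6, Igf1r, Igf2, Igfbp7, Onecut1, Bcl6, Hsd3b5, Mup1, Mup7, Susd4 and Pck1 were named besides, and the genes most like Cish added, after their values were seen. The 3 genes most like Igf1 and Igfbp3 and up to 2 abundant genes of a marker list were named too. Of the marker genes, Ly6g was not matched. Depth was estimated from the steps of low values in single-transcript genes (GENCODE M21, the same build, 200 bases taken off each length): 78.2% to 78.7% of values under 4.5 reads came out within 0.1 of a whole read at 13500000 to 16800000 reads. Reads of members used their shortest coding transcript. A scaling between libraries applied before deposit would shift these estimates. The fit was tested on simulated data. Alternatives covered pseudocount, filter, scaling, prior variance, each library left out and the replicate number as a block.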

Additional observations from a re-analysis of the deposited data

How the results depend on the processing

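With limma 59 genes were higher and 3 lower in the 7KC group. A pseudocount of 1 FPKM gave 111 higher, no filter on low values 0 higher and 1 lower (1792 and 842 at an unadjusted p under 0.05), rescaling to the same sum 402 and 7, and a prior variance without a trend 39 and 1. Leaving out 1 library gave 2 to 389 higher and 1 to 52 lower, with 389 and 52 when control replicate 1 was dropped, 19 and 4 when control replicate 2 was, 4 and 1 when 7KC replicate 1 was, and 2 of each when 7KC replicate 2 was. Of the growth hormone signaling list, 1 gene was higher, with 0 without a filter (9 of the list had an unadjusted p under 0.05), 4 after rescaling to the same sum, and 0 to 3 higher and 0 to 1 lower with 1 library left out. Of the male-biased list, 0 to 4 genes (4 without control replicate 1) were lower with 1 library left out. Among the 10 axis genes, 4 to 9 (9 without 7KC replicate 1) were lower without overlap and 0 to 2 were higher with 1 library left out. A lone library makes overlap rarer, and the shares of all genes in these settings are not given here. These counts can therefore not be judged against all genes. The cause of these moves was not tested. Leaving out a library leaves fewer samples, and the spread in the fit then comes from the other pair alone.

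Replicate numbers were shared between the groups, and the deviations of same-numbered libraries from their group means correlated at -0.141 across genes. With 2 libraries per group this value cannot show whether same-numbered libraries were collected or processed together. With the replicate number as a block, 0 genes were higher and 0 lower (1269 and 582 at an unadjusted p under 0.05) and 0 of the growth hormone signaling list (8 at an unadjusted p under 0.05). A crossed block, added after seeing the data, gave 551 higher and 37 lower.

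The changes of Igfbp1, Igfbp2, Igfbp3, Igfbp4 and Ghr were below 0 in all 13 alternative settings. Those of Stat5b, Cish, Igf1 and Igfals were above 0 in 2 and that of Socs2 in 1. Changing the filter, dropping the trend of the prior variance or adding the replicate block leaves these changes as they are. Those settings could therefore not alter a sign. Median ratio scaling hardly moved the changes either (Igfbp3 -0.974 as deposited and -0.975 scaled), because the deposited values already lay close to that scale. Depth limits genes under the filter most, among them Igf1r and 12 of the female-biased genes.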
